A study of Mus musculus with 12 samples.

Results

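Leptin and its receptor were examined as a pair of genes, Lep and Lepr, found by symbol among the 32622 genes measured in white fat of mice fed a high-fat diet. Both members were found, and they are the 2 genes described here. Lep (ENSMUSG00000059201) is a protein-coding gene on the plus strand of chromosome 6, from 29060220 to 29073877 in GRCm38. Lepr (ENSMUSG00000057722) is a protein-coding gene on the plus strand of chromosome 4, from 101717404 to 101815352 in the same build.

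The study compared wild-type mice (WT) with mice lacking C2orf74 (KO), and asked how the loss changes white fat. All 6 mice were given the high-fat diet from 8 weeks of age for 12 weeks, so obesogenic feeding is shared by every group. By the mouse codes, RNA-seq covered 2 pads of each mouse, epididymal (epWAT) and subcutaneous (scWAT), which gives 4 groups of 3 libraries. Mice C7, C34 and C695 were KO, and mice C75, C85 and C99 were WT. How the allele was made, the strain and the sex are not stated in the labels used. Values are FPKM, which scales reads to exon length and to library depth.

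Leptin is a hormone that fat cells secrete in proportion to the fat they store. It acts on the long form of its receptor in the hypothalamus, where it lowers food intake and raises energy use. The receptor belongs to the class I cytokine receptors and signals through the kinase Jak2 and the transcription factor Stat3, while Socs3 and the phosphatase Ptpn1 dampen the signal. In obesity, leptin output by fat is high.

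Recovered depths were 15011093 to 18311564 reads per library. The mouse gene corresponding to C2orf74, 1700093K21Rik, had 1 read over the KO epWAT libraries and 7 over the WT epWAT libraries, and 2 against 20 in scWAT, so it was close to undetected everywhere and is a weak check of the labels. Fat identity was plain, since all 39 adipocyte markers were above 0 in all 12 libraries. Several libraries also held RNA of other tissue. KO epWAT C7 had 488.1 FPKM of summed epididymis and germ cell markers against 3.87 to 15.6 elsewhere. KO scWAT C695 had 287.5 FPKM of summed lymphocyte markers against 3.18 to 18.9 elsewhere, and KO scWAT C34 had the highest sum of skeletal muscle markers at 313.1 FPKM.

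The stretches upstream of both start sites are shown because the levels of these genes lay far apart in the same tissue. They are the 250 bases before the annotated start on the plus strand, from RefSeq on GRCm38.p6, at chr6:29059971-29060220 for Lep and chr4:101717157-101717406 for the first listed start of Lepr. Capitals mark matches, on either strand, to 3 motifs. The motif GGGCGG is the kind of site that Sp1 binds. The palindrome TTGCGCAA is bound by C/EBP factors. The motif TATAA is the core of the element that places the start of transcription.

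Lep: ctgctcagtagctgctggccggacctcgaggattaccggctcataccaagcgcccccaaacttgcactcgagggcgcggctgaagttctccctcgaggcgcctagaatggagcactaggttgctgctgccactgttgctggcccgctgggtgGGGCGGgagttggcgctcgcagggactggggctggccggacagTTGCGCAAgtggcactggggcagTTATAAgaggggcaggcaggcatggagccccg
Lepr start 1: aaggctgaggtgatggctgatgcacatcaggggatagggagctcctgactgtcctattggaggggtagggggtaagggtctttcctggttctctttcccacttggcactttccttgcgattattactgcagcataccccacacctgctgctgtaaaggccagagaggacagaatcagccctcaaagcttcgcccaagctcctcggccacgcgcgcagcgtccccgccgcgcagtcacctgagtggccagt

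Lep held GGGCGG starting 98 bases before its start site, TTGCGCAA at 55 bases before and TATAA at 31 bases before, and the reverse-strand TATAA that overlaps it adds the preceding base to the capitals. Among 32851 promoters of that length, the palindrome was found in 0.164%, TATAA in 22.8% and the Sp1 motif in 32.7%. None of the 23 adipocyte genes with an entry in the table held the palindrome in this window, while 6 held TATAA and 11 held the Sp1 motif. The printed Lepr stretch held none of these 3 motifs, while the stretch before the second listed start of Lepr held the Sp1 motif 164 bases before it. A further motif, CCAAT, present in 33.8% of promoters, was found in the printed Lepr stretch, on the reverse strand 195 bases before its start. It was not found in the Lep stretch. The motifs ACGTG, TTCNNNGAA (N for any base) and CACGTG were also searched for and were found in none of the Lep and Lepr stretches. They were present in 16.6%, 7.02% and 6.02% of promoters. The matches given are of letters and do not show that a factor was bound.

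Lep was among the most abundant transcripts of WT fat and was lower in KO fat, most of all in the subcutaneous pad. In WT scWAT the levels were 1578.7 FPKM in C75, 1747.3 in C85 and 1704.6 in C99. In KO scWAT they were 647.6 FPKM in C7, 548.7 in C34 and 772.0 in C695. Every KO library lay below every WT library, with the highest KO value less than the lowest WT value by a wide gap. Mean Lep was 1676.9 ± 87.6 FPKM for WT scWAT and 656.1 ± 111.9 for KO scWAT (SD, 3 libraries each), so KO held 0.391 of the WT level. An exact permutation test, two-sided as are all below, gave p = 0.1, and no smaller value can be reached with 3 libraries a group. In limma with Benjamini-Hochberg adjustment over 12614 genes, Lep fell by 1.37 ± 0.14 (SE) on the log2(FPKM + 1) scale (adjusted p = 0.0439). Of all genes tested, 0.27% passed in this direction and 0.0476% in the other. In bulk tissue, fewer cells of a type and less RNA per cell cannot be told apart.

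This call rests on few animals. It held when KO scWAT C695 was left out (log2 difference -1.49, limma adjusted p = 0.0321) and was lost when KO C7, KO C34 or any WT scWAT library was left out, with adjusted p of 0.0677 to 0.203, while the difference itself stayed between -1.49 and -1.24.

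In the epididymal pad the same direction was seen with a smaller difference. WT epWAT had 1291.6 FPKM in C75, 1623.7 in C85 and 1569.6 in C99. KO epWAT had 1162.8 FPKM in C7, 1176.0 in C34 and 1133.1 in C695. The groups did not overlap, though WT C75 lay near the KO values, and the 3 KO values lay close together. Mean Lep was 1494.96 ± 178.2 FPKM for WT epWAT and 1157.3 ± 21.96 for KO epWAT (SD, 3 libraries each; exact permutation p = 0.1), a KO level 0.774 of WT. The log2 difference of -0.36 ± 0.13 did not pass (limma adjusted p = 0.122). None of 12722 genes passed in this comparison, a background of 0%, although 3795 had an unadjusted p under 0.05. Groups without overlap were common there, at 29.2% of genes in the lower direction, against 13.4% in scWAT. The median gene was itself lower by 0.10 in KO epWAT, and the Lep difference was -0.20 after upper-quartile scaling and -0.62 after quantile scaling.

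**Figure D1:**
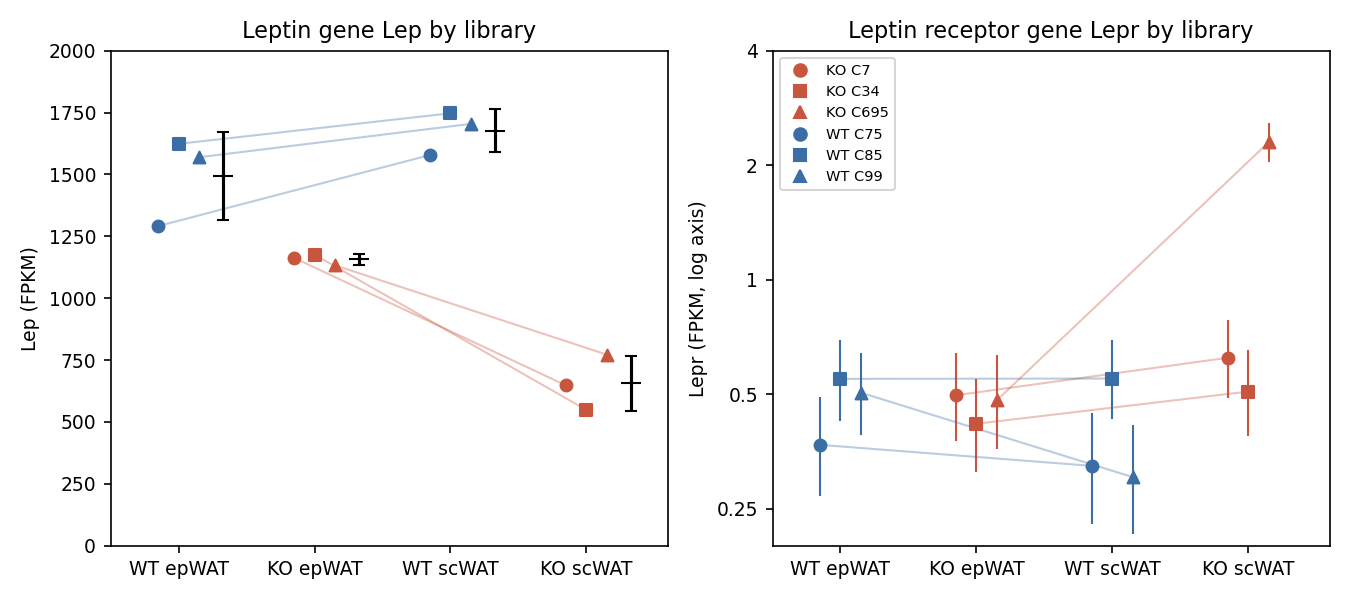
FPKM of Lep (left, linear axis) and Lepr (right, log axis) in the 12 libraries, with WT in blue, KO in red, 1 symbol per mouse and lines joining the pads of a mouse. Black bars give mean and SD for Lep, and bars on Lepr points give the 95% Poisson interval of the reads. KO scWAT lies at 548.7 to 772.0 FPKM of Lep against 1578.7 to 1747.3 in WT scWAT, and KO scWAT C695 stands alone for Lepr at 2.30 FPKM.

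Set in order, mean Lep was highest in WT scWAT, then WT epWAT, KO epWAT and KO scWAT. The WT pads overlapped, and their difference of 0.17 ± 0.11 on the log2 scale, scWAT minus epWAT, did not pass (limma adjusted p = 0.321; 22.4% of genes passed in either direction, and 43.2% had pads without overlap). The KO pads did not overlap, with scWAT lower by -0.83 ± 0.15 (limma adjusted p = 0.0887). Of all genes, 0.713% passed there, 0.428% as lower, and 8.37% lay wholly lower. Among all genes, Lep ranked 16 to 21 in the WT epWAT libraries and 20 to 21 in WT scWAT, but 25 to 29 in KO epWAT and 37 to 51 in KO scWAT. Its share of all summed FPKM was 0.510% to 0.558% in WT scWAT and 0.171% to 0.240% in KO scWAT.

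The difference between the pads was also read within each mouse. From epWAT to scWAT, log2 Lep changed by -0.84, -1.10 and -0.55 among the KO animals (C7, C34, C695, in that order). It changed by 0.29, 0.11 and 0.12 among the WT animals (C75, C85, C99). Every KO mouse thus had less Lep in its subcutaneous than in its epididymal pad, and every WT mouse slightly more. The genotypes differed by -1.003 (exact permutation p = 0.1, n = 3 mice each, again the lower limit). The interaction in limma was -1.003 ± 0.18 (adjusted p = 0.0420), where 0.445% of 13487 genes passed in the lower direction and 0.586% in the other. With the mouse as a block the adjusted p was 0.0633, and after quantile scaling the interaction was -0.51 (adjusted p = 0.173). It passed when KO epWAT C7 or KO scWAT C695 was left out and was lost for each of the other 10 libraries, with adjusted p of 0.0546 to 0.113.

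Other highly expressed adipocyte genes gave a different picture from Lep. This and the later gene lists were chosen with earlier results of these data known, so their counts are a description. Of 39 adipocyte genes, 22 had higher and 17 lower values in KO scWAT, with a median log2 difference of 0.05 against 0.01 for all genes (19, 20 and -0.02 without KO scWAT C695). None passed, though 2 did as higher with the mouse as a random effect in a fit of all 12 libraries (0.349% of genes did). In KO epWAT 36 had higher and 3 lower values, with a median of 0.47 against -0.10 for all genes. None passed there, and 26 lay wholly above WT, where 9.6% of all genes did. Leaving out KO epWAT C7 let 15 pass as higher (2.68% of genes passed in that direction), and taking the mouse as a random effect let 19 pass (3.62%). Macrophage markers moved the other way in that pad. Summed, they reached 2697 to 3869 FPKM among the WT epWAT libraries but 722 to 1917 among the KO ones, and 14 of 18 lay wholly below WT (29.2% of all genes did), with none at an adjusted p under 0.05 in limma. Without KO epWAT C7, 14 of 18 passed as lower, where 11.6% of all genes did, and with the mouse as a random effect 5 did (11%). Their part in the adipocyte and Lep values was not tested.

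Adipoq, which encodes the hormone adiponectin, was close to its WT level in KO scWAT. It was at 1994.8, 1718.2 and 1735.4 FPKM in KO scWAT (C7, C34, C695) and at 2097.6, 1966.1 and 1963.0 in WT scWAT (C75, C85, C99), a log2 difference of -0.15 ± 0.11 (limma adjusted p = 0.536). Cfd, which encodes the secreted protease adipsin, was at 5855.3, 7808.0 and 4750.7 FPKM in KO scWAT and at 2355.5, 2093.4 and 3251.1 in WT scWAT. All KO values of Cfd lay above all WT values, the reverse of Lep, as they did for 11.1% of all genes. Its difference of 1.25 ± 0.25 did not pass (limma adjusted p = 0.0971). In epWAT, the corresponding difference for Cfd was 1.78 ± 0.26 (limma adjusted p = 0.0586) and for Retn, which encodes resistin, 1.32 ± 0.24 (limma adjusted p = 0.066).

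The most abundant lipid-handling genes gave differences of either sign in KO scWAT, and none passed. The desaturase gene Scd1, the highest of the list, differed by 0.48 and the carbonic anhydrase gene Car3 by 0.05, while the fatty acid binding protein gene Fabp4 differed by -0.11 and the lipid droplet gene Cidec by -0.43 (limma adjusted p of 0.254 to 0.891). The lipid droplet coat gene Plin1 differed by 0.15. The adipogenic regulators Pparg and Cebpa differed by -0.14 and 0.05. Among these 39 genes and Lep, Lep had the lowest log2 difference in both pads.

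**Figure D2:**
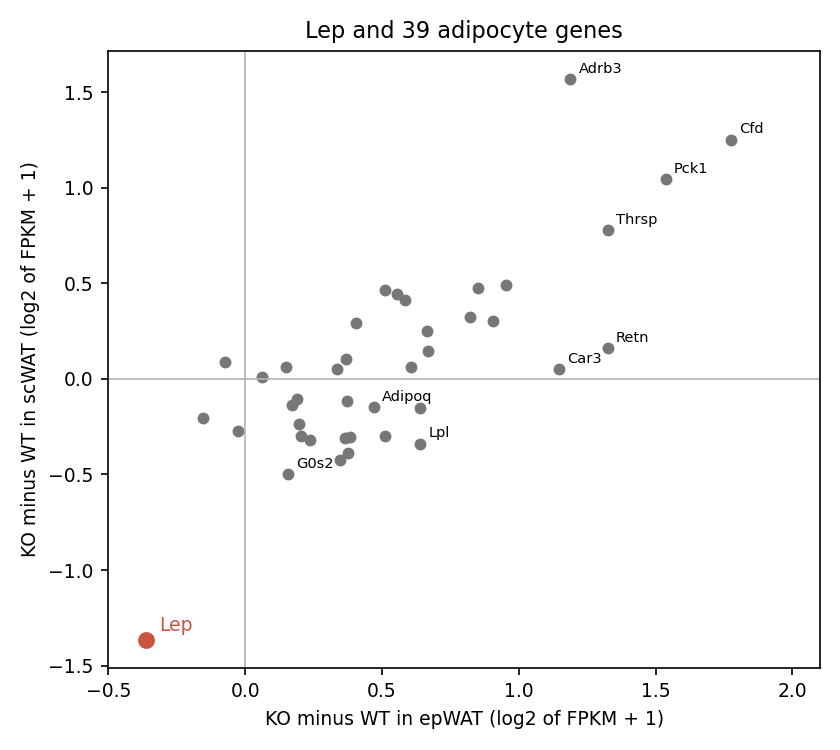
Log2 difference of FPKM + 1, KO minus WT, in epWAT (horizontal) and scWAT (vertical) for Lep in red and 39 adipocyte genes in grey, 1 point per gene. Lep lies at -0.36 and -1.37, while the adipocyte genes have medians of 0.47 and 0.05.

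Lep was then taken relative to the mean of these 39 genes within each library, which removes differences of scale between libraries. In scWAT, log2 Lep exceeded the list mean by 2.65 in WT C75, 2.67 in C85 and 2.61 in C99. In KO scWAT the excess was 1.16 in C7, 1.03 in C34 and 1.31 in C695. The drop was -1.48 (exact permutation p = 0.1, n = 3), and the list mean itself differed by 0.11 (exact p = 0.3). In epWAT the excess was 2.91, 2.99 and 2.95 in WT (C75, C85, C99) and 2.29, 2.07 and 1.73 in KO (C7, C34, C695). The drop there was -0.92 (exact permutation p = 0.1, n = 3), of which 0.56 is the higher list mean of KO epWAT (exact p = 0.1).

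Read this way, both pads showed lower Lep in KO with no overlap, and WT libraries spread far less than KO libraries. The genotype gap between pads within a mouse was -0.56 on this scale (exact permutation p = 0.1, n = 3 mice each), smaller than the -1.003 of Lep alone. Set against the summed FPKM of the list, which does not include it, Lep was at 6.36% to 6.98% of that sum in WT epWAT. In WT scWAT it was at 5.15% to 5.66%. In KO it was 2.64% to 3.85% in epWAT and 1.55% to 2.23% in scWAT. Among the 39 genes and itself, Lep ranked 5 to 6 in WT epWAT and 7 in every WT scWAT library, and 12 to 15 in KO scWAT.

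**Figure D3:**
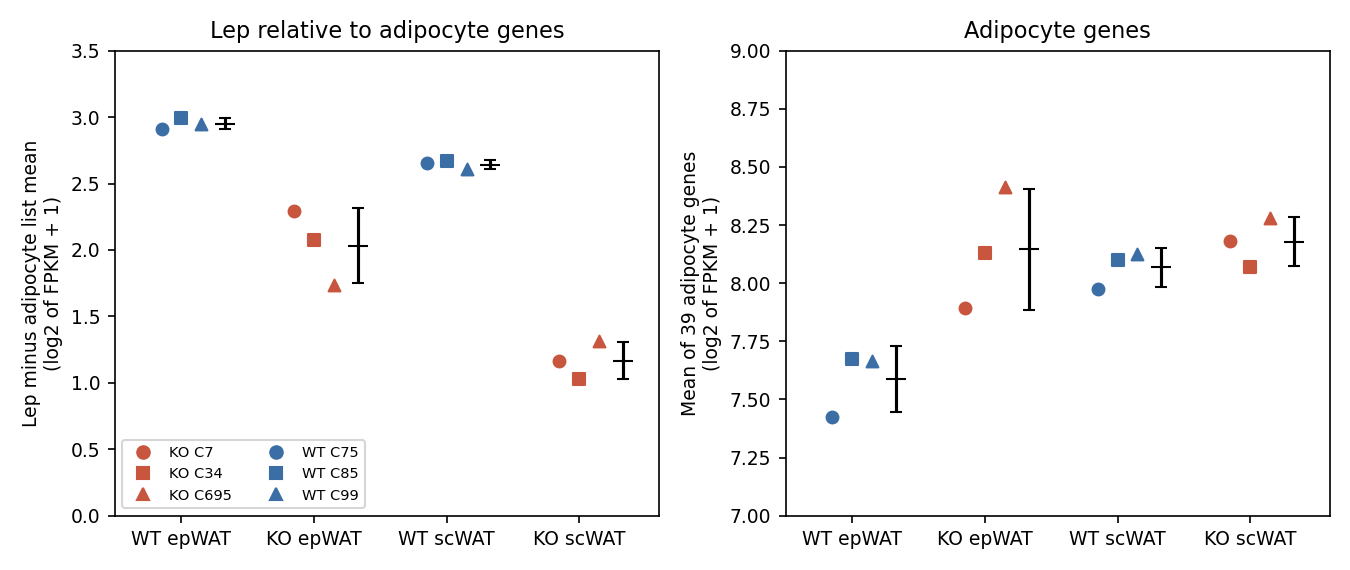
Left, log2(FPKM + 1) of Lep minus the mean of 39 adipocyte genes in each library. Right, that mean, on an axis that does not start at 0. Points are libraries (WT blue, KO red), and black bars are mean and SD. Lep falls from 2.61 to 2.67 in WT scWAT to 1.03 to 1.31 in KO scWAT, while the list mean differs by 0.11.

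In WT mice most adipocyte genes passed between the pads, and Lep did not. Of the 39 genes, 21 were higher and 1 was lower in WT scWAT than in WT epWAT by limma at an adjusted p under 0.05, where 7.49% and 14.9% of all genes passed. Cfd was higher by 1.43 (limma adjusted p = 0.0103) and Adipoq by 0.61 (limma adjusted p = 0.0185), against 0.17 for Lep. In the same comparison 16 of 18 macrophage markers passed as lower in WT scWAT, where 14.9% of all genes did. The part of cell make-up in these values was not tested. In the interaction 37 of 39 adipocyte genes had negative values, with a median of -0.49 against 0.10 for all genes. The lipase gene Lpl alone passed, at -0.98 (limma adjusted p = 0.0383, and 0.0633 with the mouse as a block), and it is named because it was the single call.

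Leprot, which encodes a protein that limits display of the receptor at the cell surface, lies 58040 bases before Lepr with no shared exon in the annotation. It was far more abundant than Lepr per length, at 52.8 ± 7.83 FPKM in WT epWAT, 38.3 ± 4.88 in KO epWAT, 38.1 ± 1.91 in WT scWAT and 35.001 ± 2.90 in KO scWAT (SD, n = 3). KO lay below WT in epWAT without overlap (exact permutation p = 0.1), as did 29.2% of all genes, and overlapped in scWAT. The log2 differences were -0.45 and -0.12, and neither passed (limma adjusted p = 0.103 and 0.512).

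Lepr itself was expressed at a low level, ranking 10655 to 15815 among all genes. WT epWAT had 0.368 FPKM in C75, 0.549 in C85 and 0.505 in C99, and KO epWAT had 0.497 in C7, 0.418 in C34 and 0.482 in C695. WT scWAT had 0.324 FPKM in C75, 0.550 in C85 and 0.303 in C99, and KO scWAT had 0.624 in C7, 0.508 in C34 and 2.298 in C695. Of these 12 values, 11 lay between 0.303 and 0.624 FPKM, which is 37 to 74 reads, and the exception had 283 reads. Lepr therefore did not reach 1 FPKM in 3 libraries and was outside the genes tested. Levels in the hypothalamus, the main site of the receptor, were not measured.

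The odd library, KO scWAT C695, is also the one with lymphocyte RNA. Of the 13487 genes over the filter, 20.0% were highest in that library, and a like share, 20.7%, were highest in WT epWAT C75. In KO scWAT C695, 14 of 16 lymphocyte markers were highest. Among them was the B cell gene Cd79a at 75.8 FPKM against at most 4.60 elsewhere. Whether those cells carried the Lepr reads was not tested. KO scWAT averaged 1.14 ± 1.00 FPKM and WT scWAT 0.392 ± 0.137 (SD, 3 libraries each; exact permutation p = 0.2). Without C695 the KO mean was 0.566 and the exact permutation p was 0.4. In epWAT the means were 0.466 ± 0.042 in KO and 0.474 ± 0.094 in WT (exact permutation p = 0.8, n = 3).

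A fit that kept low genes gave Lepr a log2 difference of 0.53 ± 0.32 in scWAT (limma adjusted p = 0.659) and -0.0064 ± 0.087 in epWAT (limma adjusted p = 0.983). The scWAT value was 0.17 without KO scWAT C695 and 1.24 in limma-voom on recovered reads (adjusted p = 0.571 and 0.567). The limma-voom value is on a log2 scale of reads by depth, not log2(FPKM + 1), so its size is not directly comparable. No difference of Lepr between genotypes passed in either pad, which does not show that the levels were equal. Within a mouse, log2 Lepr changed from epWAT to scWAT by 0.12, 0.089 and 1.15 among the KO animals (C7, C34, C695), and by -0.047, 0.0011 and -0.21 in WT C75, C85 and C99. The KO mice lay above the WT mice, with a difference of 0.54 that C695 sets in large part (0.19 without it; exact permutation p = 0.1 with all 6 mice). Its size depends on the pseudocount, at 1.09 with 0.1 and 0.18 with 5 in place of 1.

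Apart from Cish, the listed genes through which the receptor signals reached 1 FPKM in at least 3 libraries of each pad, which Lepr did not. None of those tested passed between genotypes. Of 28 listed genes, 27 were tested in each pad. In KO scWAT 22 had higher and 5 lower values, with a median of 0.08 against 0.01 for all genes. Without KO scWAT C695 it was 15 higher and 11 lower, with a median of 0.02. In KO epWAT 12 had higher and 15 lower, with a median of -0.03 against -0.10. Jak2 averaged 12.4 ± 2.28 FPKM in KO scWAT and 11.4 ± 0.666 in WT scWAT, and Stat3 averaged 20.3 ± 4.16 and 19.0 ± 2.3 (SD, n = 3). Taking the mouse as a random effect, 5 of the 27 passed as lower in KO epWAT, where 11% of all genes did.

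Socs3, the feedback inhibitor that leptin and other cytokines induce, varied widely among KO libraries. It was at 15.3 FPKM in KO scWAT C7, 48.9 in C34 and 3.603 in C695, and at 4.70, 2.12 and 2.22 in WT scWAT (C75, C85, C99). In KO epWAT it was at 33.6 in C7, 7.52 in C34 and 1.98 in C695, and at 5.89, 4.19 and 2.90 in WT epWAT. The KO libraries of C7 and C34 were thus above every WT library of the same pad. C695 lay within the WT range in scWAT and below it in epWAT. The differences of 2.01 ± 0.83 and 0.89 ± 0.84 did not pass (limma adjusted p = 0.29 and 0.507). The epWAT difference turned to -0.04 without KO epWAT C7 and was 1.73 without KO epWAT C695, and the scWAT one ran from 1.17 to 2.89 with 1 library left out. Cish, another cytokine-induced inhibitor of the list, was named after its values were seen. It reached 1 FPKM in fewer than 3 libraries of each pad, so it was not tested between genotypes. It was at 2.79, 11.2 and 0.597 FPKM in KO scWAT (C7, C34, C695) and at 0.491, 0.502 and 0.236 in WT scWAT. In epWAT it was at 1.83, 7.12 and 0.0934 FPKM in KO and at 0.413, 0.363 and 0.307 in WT. KO epWAT C695 thus lay below every WT epWAT library. Ptpn1 differed by 0.34 ± 0.17 in scWAT and -0.56 ± 0.20 in epWAT (limma adjusted p = 0.384 and 0.122).

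Among 18 genes known to bear on Lep transcription, none passed in either pad. Values were higher for 13 and lower for 5 in KO scWAT, with a median of 0.10, and higher for 11 and lower for 7 in KO epWAT, with a median of 0.11. Cebpa, whose product binds the palindrome printed above in the mouse Lep promoter, averaged 322.1 ± 54.6 FPKM in KO scWAT and 308.1 ± 26.6 in WT scWAT (SD, n = 3). Cebpd, a C/EBP factor that acts early in adipogenesis, was at 27.98, 49.4 and 13.97 FPKM in KO scWAT (C7, C34, C695). In WT scWAT it was at 8.14, 8.27 and 16.9, a difference of 1.28 ± 0.48 (limma adjusted p = 0.252). In epWAT Cebpd was at 24.9, 24.6 and 16.6 FPKM in KO and 7.68, 7.63 and 14.1 in WT. Its KO epWAT values all lay above WT, as for 9.6% of all genes. Cebpb differed by 0.45 and Srebf1, a regulator of lipid synthesis, by 0.36 in scWAT. All KO values of Srebf1 lay above all WT values in scWAT, as for 11.1% of all genes, and also in epWAT. Of the 18 genes, 1 lay wholly above and 1 wholly below WT in scWAT. In epWAT 4 lay wholly above and 3 wholly below, as did 9.6% and 29.2% of all genes. Hif1a, the oxygen-sensing factor, was lower in all 3 KO scWAT libraries than in any WT one, as were 13.4% of all genes. Its difference was -0.42 ± 0.11 (limma adjusted p = 0.156). When the mouse was a random effect, 1 of the 18 passed as higher (3.62% of all genes) and 1 as lower (11%) in epWAT.

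The receptor family of Lepr was described through 15 other class I cytokine receptor genes. In KO scWAT 8 of 11 tested had higher values, with a median of 0.23, and in KO epWAT 8 of 12 had lower values, with a median of -0.29, and none passed. Ghr, the growth hormone receptor, was the most abundant at a mean of 150.2 FPKM over 12 libraries, followed by Il6st, the shared signalling chain of the interleukin-6 family, at 30.2 FPKM. Il6st differed by 0.17 ± 0.11 in scWAT and -0.26 ± 0.10 in epWAT (limma adjusted p = 0.466 and 0.15). A random effect for the mouse let 1 of 12 pass as higher and 1 as lower in epWAT, where 3.62% and 11% of all genes did.

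Genes tied to fat cell expansion were mostly lower in KO scWAT. Of 12 tested, 11 had lower values in KO scWAT, with a median of -0.65 against 0.01 for all genes. Of the 12, 9 lay wholly below WT, where 13.4% of all genes did. The list was chosen with earlier results of these data known, so the contrast with all genes is a description. Mest, an imprinted gene whose level rises with fat mass gain in mice, was the single call. It was at 61.4, 60.2 and 40.8 FPKM in KO scWAT (C7, C34, C695) and 320.5, 195.5 and 232.2 in WT scWAT (C75, C85, C99), a log2 difference of -2.18 ± 0.23 (limma adjusted p = 0.0444). The call held without KO scWAT C695 and was lost for each of the other 5 scWAT libraries left out, with adjusted p of 0.102 to 0.182. With the mouse as a random effect, 6 of 12 passed as lower (1.87% of genes did).

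In KO epWAT the same list split, with 7 higher and 5 lower values and a median of 0.07. Mest was at 203.2, 149.3 and 71.6 FPKM in KO epWAT (C7, C34, C695) and 245.0, 225.3 and 264.1 in WT epWAT, a difference of -0.91 ± 0.36 (limma adjusted p = 0.157). Sfrp5, a secreted Wnt inhibitor made by fat cells, averaged 106.0 ± 17.7 FPKM in KO scWAT and 236.3 ± 53.9 in WT scWAT (SD, n = 3; limma adjusted p = 0.0866). In the interaction all 12 had negative values, with a median of -0.70 against 0.10 for all genes. Cav2, a caveolin gene, was the single call at -0.82 ± 0.15 (limma adjusted p = 0.0406, and 0.0633 with the mouse as a block).

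**Figure D4:**
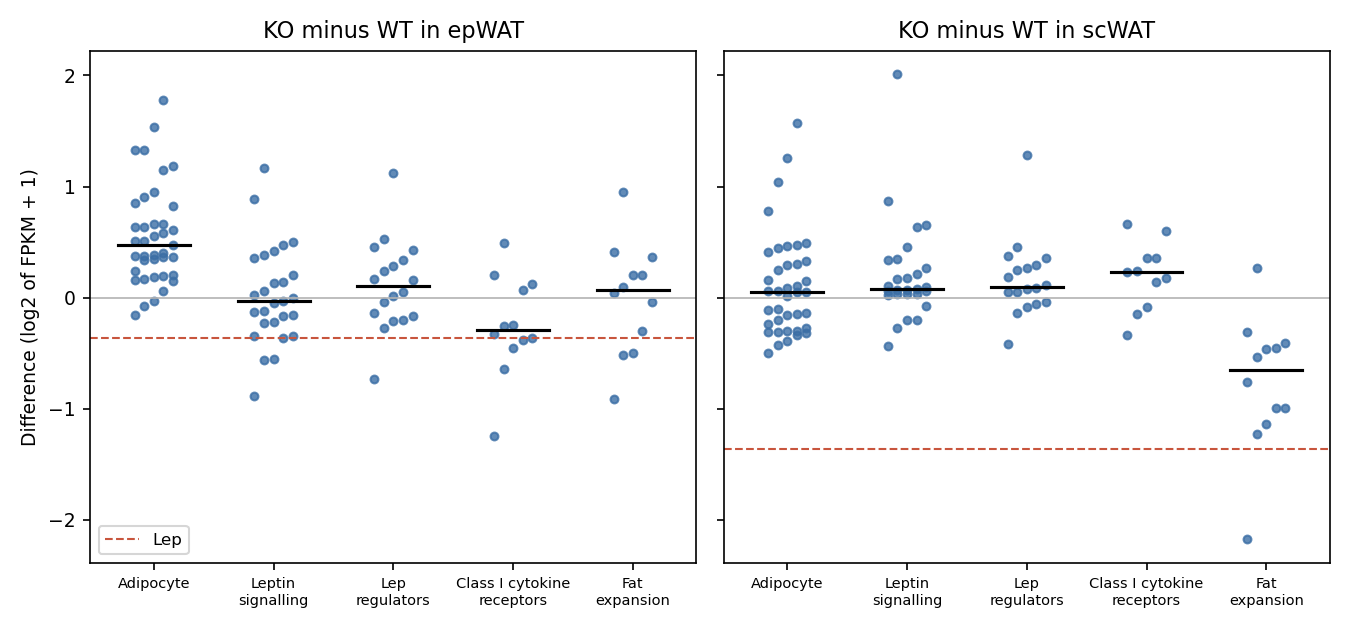
Log2 difference of FPKM + 1, KO minus WT, for the tested genes of 5 lists in epWAT (left) and scWAT (right), 1 point per gene, with the median as a black bar and Lep as a dashed red line. In scWAT Lep at -1.37 lies below every gene shown except Mest at -2.18, and in epWAT Lep at -0.36 lies below all 39 adipocyte genes and within the spread of the other lists shown.

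Over all 12 libraries, the genes whose log2 FPKM followed Lep most closely among 11962 compared were Ddr1, Vgll3, Dmrt2, Actn4 and Taf13, with Pearson r of 0.978, 0.967, 0.966, 0.959 and 0.958. Ddr1 is a collagen receptor kinase, Vgll3 a transcriptional cofactor that restrains adipogenesis in mice, Dmrt2 a transcription factor, Actn4 an actin crosslinker and Taf13 a subunit of the general factor TFIID. All share the drop in KO scWAT, so r is set in large part by 4 group levels. After group means were removed, r was 0.907 for Ddr1, 0.751 for Vgll3, 0.723 for Dmrt2, 0.829 for Actn4 and 0.373 for Taf13.

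Dmrt2 was at 15.3, 9.16 and 15.6 FPKM in KO scWAT (C7, C34, C695) and 41.4, 43.1 and 45.1 in WT scWAT (C75, C85, C99). Vgll3 was at 16.0, 12.2 and 14.9 FPKM in KO scWAT and 31.9, 36.6 and 31.3 in WT scWAT. Ddr1 was at 12.5, 11.1 and 16.2 FPKM in KO scWAT and 26.4, 25.6 and 27.5 in WT scWAT. In all 3, as in Lep, C34 was the lowest KO scWAT library. Actn4 and Taf13 had the same order of groups over a smaller range, with differences of -0.34 and -0.39. Because these genes were chosen for likeness to Lep over the same libraries, the values are a description.

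**Figure D5:**
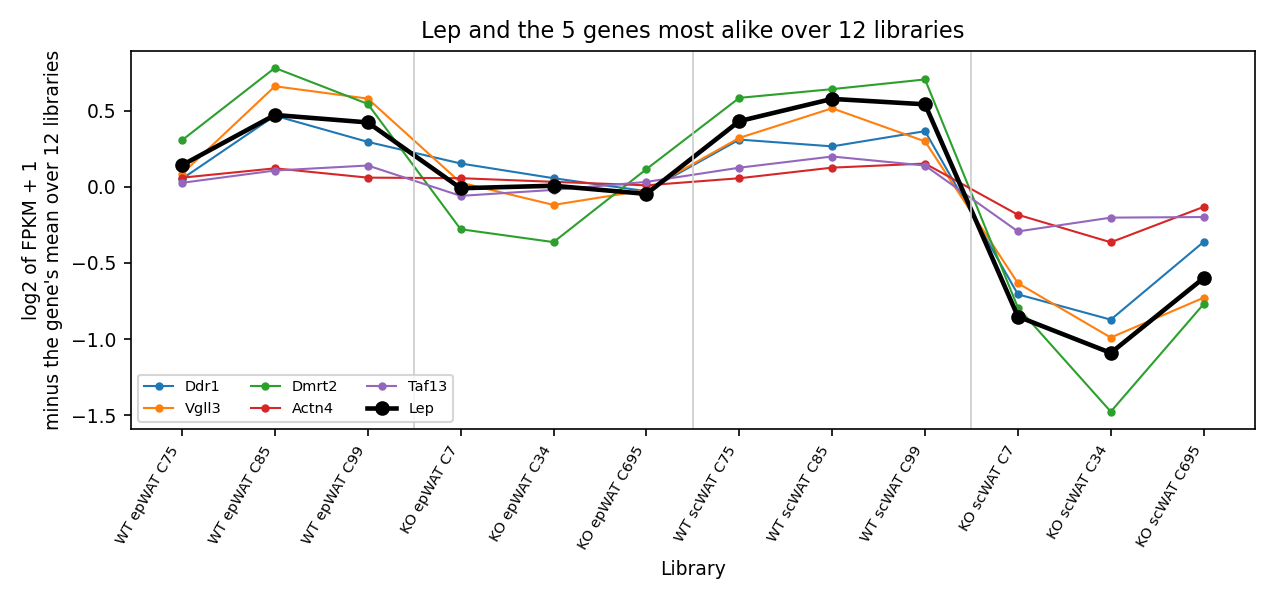
Log2(FPKM + 1) minus each gene's own mean over 12 libraries, for Lep in black and the 5 genes most alike in colour, by library. All 6 lines are lowest in the 3 KO scWAT libraries, and in 4 of the 5 genes C34 is the lowest of these, as in Lep.

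The genes most like Lepr were Arid4b, H2-Ob, Btla, Dgka and Rhof, with r of 0.971, 0.946, 0.941, 0.941 and 0.933. Each was highest in KO scWAT C695, where the lymphocyte receptor gene Btla was at 29.4 FPKM against at most 1.49 elsewhere. Without that library r was 0.608 for Arid4b, 0.073 for H2-Ob, 0.066 for Btla, 0.268 for Dgka and 0.00062 for Rhof, so the likeness rested on KO scWAT C695. Lep and Lepr themselves had an r of -0.43 over the 12 libraries.

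Genes within 500000 bases of either member did not pass between genotypes in either pad where they were tested. Nearest to Lep among well-expressed genes was Rbm28, a nucleolar RNA-binding protein gene, with a log2 difference of -0.64 ± 0.13 in scWAT (limma adjusted p = 0.0971) and 0.02 in epWAT. No annotated gene overlaps Lep or Lepr, so reads of an overlapping neighbour do not enter their values under this annotation.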

How the data were processed

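RNA-seq of 12 white fat libraries was analysed, each a table of 32622 Ensembl genes. The authors deposited 1 value per gene and library, taken as FPKM (reads scaled by exon length and library depth by the authors), because multiplying by GENCODE M21 exon length and one depth per library gave whole reads, within 0.01, in all 12 libraries for 92.4% of the 32553 genes matched (69 identifiers did not match). The submitters' processing notes name mm9, while the lengths follow a GRCm38 annotation, so coordinates are those of GRCm38. The aligner was not given in the sources used here. Depths of 15011093 to 18311564 reads were recovered from these values, and intervals cover counting error only.

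Genes with at least 1 FPKM in at least 3 fitted libraries were tested on log2(FPKM + 1) with limma 3.58.1 (trend, robust variance not used) in R 4.3.3, with Benjamini-Hochberg adjustment over all genes and a threshold of 0.05. Fold changes on this scale understate the change of low genes. Lepr failed the filter, so its values come from the fit without a filter, with exact permutation tests in scipy 1.17.1. The steps were checked on simulated data. Mouse codes recur in both pads, so the libraries of a code were taken to come from 1 animal. Deviations from group means correlated between pads at -0.03 to 0.36 for the same mouse, and 1 of 6 mice was below 0.1. That mouse, C7, had an r of -0.03, less than its 0.06 with another KO mouse. In the others the same mouse had the higher r. Alternatives were other pseudocounts, filters, scalings, limma-voom on recovered reads, a mouse block and each library left out. Fits with the mouse as a random effect used all 12 libraries, so they also shared the spread over both pads. A fit that shared the spread without a mouse term was run as well.

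The members and gene lists were chosen with earlier results of these data known. Genes named are Lep, Lepr and Leprot, chosen adipocyte genes with the 6 most abundant, listed genes that passed, regulators fixed by name, and the 5 genes most alike to each member. With 3 mice per genotype, each p-value sets a difference against the spread between few libraries or mice. The main limma fits between pads and for the interaction took libraries of the same mouse as independent.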

Additional observations from a re-analysis of the deposited data

Results flagged for a closer look

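The KO effect differed between the pads for 5 of the genes described, by the interaction in limma with Benjamini-Hochberg adjustment, where 1.03% of 13487 genes passed. Lep had an interaction of -1.003, with KO lower than WT by more in scWAT than in epWAT in all 3 KO mice. Lpl had -0.98, with values above WT in KO epWAT and below WT in KO scWAT. The caveolin gene Cav2 had -0.82, the progenitor marker Thy1 had 1.18 and the pericyte marker Mcam had -0.87. With the mouse as a block none of the 5 passed, with adjusted p of 0.0619 to 0.0648. Markers of lymphocytes in KO scWAT C695 and of epididymis in KO epWAT C7 enter the same fit, and their part was not tested.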

How the results depend on the processing

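Lep stayed lower in KO scWAT under all settings run, and its call was lost with no filter (-1.37, limma adjusted p = 0.128) and with quantile scaling (-1.14, 0.0620). With 1 library left out it lay between -1.49 and -1.24. The Lep interaction was lost with no filter (-1.003, 0.165), with quantile scaling (-0.51, 0.173) and with the mouse as a replicate block (-1.003, 0.0633), and lay between -1.13 and -0.88 with 1 library left out. The cause of these losses was not tested. The KO pad difference of Lep passed in limma-voom with no filter (-0.83, 0.0305), and its WT pad difference turned to -0.16 under quantile scaling. Lepr in epWAT changed sign without KO C34 (0.017), WT C85 (0.030) or WT C99 (0.0095). With the mouse as a random effect over all 12 libraries, Lep had limma adjusted p of 0.00321 in scWAT and 0.0886 in epWAT. The same fit without a mouse term gave 0.00285 and 0.0891, with 270 and 1820 genes passing. With the random effect 280 and 1856 genes passed, so little of the change came with the mouse term. Counts of genes passing moved widely: from 40 to between 11 and 280 in scWAT, from 0 to as many as 1856 in epWAT, and from 139 to between 0 and 1477 for the interaction. Leaving out 1 library gave 0 to 142, 0 to 1781 and 0 to 928. Lepr in scWAT moved from 0.53 to 0.17 without KO scWAT C695. It was 1.24 in limma-voom, which does not use log2(FPKM + 1), so that size is not directly comparable for a gene this low. Counting error is larger for Lepr, at 37 to 283 reads per library, than for Lep, at 31331 to 107312.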
